A study of Mus musculus with 24 samples.

Results

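RNA from the renal cortex of 24 C57BL/6 mice was used to ask whether PMX-53 acted differently in diabetic and in non-diabetic animals. The measure was the interaction: the log2 change with PMX-53 in diabetic mice minus the log2 change with PMX-53 in non-diabetic mice, taken gene by gene over all 24 libraries. A positive value means that PMX-53 moved a gene higher in diabetic than in non-diabetic mice, and a negative value that it moved it lower. The genes were those that passed an expression filter over the 4 groups, 15808 of the 48526 in the table, and none was picked by its values. Each group had 6 libraries. Non-diabetic vehicle mice received citrate buffer and plain drinking water. Non-diabetic PMX-53 mice received citrate buffer and 2 mg/kg PMX-53 in the water. Diabetic vehicle mice received 5 daily intraperitoneal injections of 55 mg/kg streptozotocin and plain water, and diabetic PMX-53 mice received the same injections and 2 mg/kg PMX-53. Injections began at 6 weeks of age and the mice were followed for 24 weeks. The labels name 24 separate samples but not how the mice were housed or processed, so each p-value reflects the spread among samples and nothing wider.

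Streptozotocin enters and kills the insulin-producing beta cells of the pancreas, so it models diabetes through lack of insulin and the high glucose that follows. PMX-53 is a cyclic peptide antagonist of C5aR1, the receptor through which the complement fragment C5a activates leukocytes and other cells. The proximal tubule fills most of the renal cortex and depends on mitochondria to drive reabsorption. According to its title, the study is about C5a signalling and mitochondrial metabolism in diabetic kidney disease. An interaction separates an effect of the inhibitor that needs diabetes from one that is present in any kidney.

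The libraries held 10964992 to 22000895 counts. The summed level of 10 markers of the early proximal tubule, the main cell type of renal cortex, lay at 6970 to 11200 CPM (a gene's counts scaled to a common library size) over the 24 libraries. RNA composition moved with the groups. Mitochondrially encoded genes took a median of 22.4% of counts in non-diabetic vehicle libraries (range 20.12 to 24.57), 23.1% with PMX-53 (20.24 to 24.57), 30.1% in diabetic vehicle libraries (25.93 to 31.9) and 25.5% in diabetic PMX-53 libraries (22.21 to 28.98). All 6 diabetic vehicle libraries therefore lay above all 12 non-diabetic ones. This share included mitochondrial ribosomal RNA. Ribosomal RNA took medians of 18.6%, 19.2%, 25.2% and 21.5% of counts in the 4 groups in the same order. Without it, mitochondrially encoded genes took medians of 4.66%, 4.99%, 6.27% and 5.35% of the remaining counts. The part of ribosomal RNA removal in this shift was not tested. The diabetic vehicle libraries also stood apart at genes known to differ between substrains of C57BL/6 mice. Nnt, a transhydrogenase of the inner mitochondrial membrane that is partly deleted in C57BL/6J mice, ranged from 242 to 272 CPM there and from 101 to 121 CPM in the other 18 libraries. Wdfy1, an endosomal adaptor gene, ranged from 66.6 to 79.6 CPM there and from 26.1 to 33.2 CPM elsewhere. Of 8 tested genes on the substrain list, 4 were called in the interaction: Nnt and Wdfy1 were negative, and Ide and Btaf1 positive. Every interaction below uses the diabetic vehicle libraries, and a further trait of those mice cannot be told apart from the joint effect of diabetes and PMX-53. The same holds for PMX-53 against vehicle in diabetic mice and for diabetes on vehicle.

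The effect of PMX-53 differed between diabetic and non-diabetic mice at 1489 of 15808 genes, 9.42% of those tested (edgeR's quasi-likelihood test, Benjamini-Hochberg adjusted p under 0.05). Of these, 737 were positive (4.66%) and 752 negative (4.76%), and 341 differed by at least 2-fold, 176 positive and 165 negative. At an unadjusted p under 0.05 there were 3795. Between diabetic PMX-53 and diabetic vehicle libraries 4317 genes differed (27.3%), 2190 higher with PMX-53 (13.9%) and 2127 lower (13.5%). In non-diabetic mice 0 genes (0%) differed with PMX-53 by the same test, with 1142 at an unadjusted p under 0.05 and a smallest adjusted p of 0.327. DESeq2 called 5 genes in non-diabetic mice and limma 0. These counts are not a test of the difference between the arms, which is the interaction itself. Without scaling beyond library totals 1336 genes were called, and 79.3% of them were positive against 49.5% with scaling and the median of all genes moved from 0.006 to 0.119 on the log2 scale. No gene among the 1489 changed sign.

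The sizes of the effects on each side were as follows. Among the 737 positive genes the median log2 change with PMX-53 was 0.53 in diabetic and -0.04 in non-diabetic mice. Among the 752 negative genes it was -0.47 and 0.05. The same contrast can be read as the effect of diabetes with and without the inhibitor: the positive genes had a median log2 difference between diabetic and non-diabetic mice of -0.63 on vehicle and -0.04 on PMX-53, and the negative genes 0.55 and -0.01. Between diabetic and non-diabetic mice 6363 genes differed on vehicle (40.3%), 3223 higher in diabetic mice (20.4%) and 3140 lower (19.9%). On PMX-53 1587 genes differed (10%), 872 higher in diabetic mice (5.52%) and 715 lower (4.52%). These readings share libraries with the interaction, so the calls fix their general direction. The effects in diabetic and non-diabetic mice share no libraries, and over all 15808 genes they had a Pearson's r of 0.138 and a Spearman's rank correlation of 0.148, with standard deviations of 0.423 and 0.197. These are correlations across genes, which are not independent replicates. An interaction can depend on the scale: the difference of differences of mean CPM had the opposite sign to the log2 value at 0 of the 1489 genes.

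**Figure D1:**
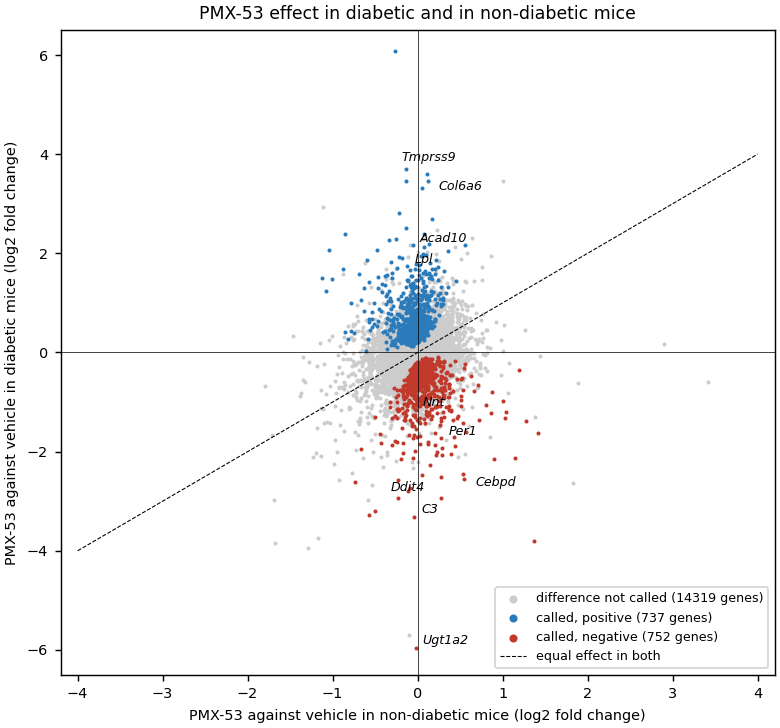
Each point is 1 of 15808 genes, with its log2 fold change under PMX-53 relative to vehicle (horizontal axis, non-diabetic mice; vertical axis, diabetic mice); blue and red mark the 737 positive and 752 negative calls and the dashed line marks equal effects. Over all genes the standard deviation is 0.197 on the horizontal and 0.423 on the vertical axis. Of the called genes 28 positive and 33 negative ones have a change over 0.5 in size in non-diabetic mice.

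At 1029 of the 1489 called genes (69.1%) no group of libraries stood wholly apart from the rest. At the others 1 group did, counted here on genes already called in the same contrast and so as a description. All 6 diabetic vehicle libraries lay below the other 18 at 211 of the 737 positive genes (28.6%, against 1.71% of all tested genes) and above the other 18 at 236 of the 752 negative genes (31.4%, against 2.02%). In either direction that group stood apart at 3.73% of all tested genes. The diabetic PMX-53 libraries stood apart at 9 called genes, 6 above (0.0886% of all tested genes) and 3 below (0.0759%), 0.164% in either direction. Non-diabetic vehicle libraries stood apart at 3 called genes, 1 above (0.0253% of all tested genes) and 2 below (0.0316%), or 0.0569% in either direction. Non-diabetic PMX-53 libraries stood apart at 1 called gene, below (0.00633% above and 0.00633% below, 0.0127% together).

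The negative interaction of greatest size was at Ugt1a2, a glucuronosyltransferase gene (ENSMUSG00000090171, chromosome 1, 88200601 to 88218997, plus strand, GRCm38). Its level ranged from 1.44 to 6.05 CPM in non-diabetic vehicle libraries (median 2.09), from 1.81 to 3.68 with PMX-53 (2.52), from 19.1 to 424 in diabetic vehicle libraries (286) and from 3.35 to 5.11 in diabetic PMX-53 libraries (3.64). All 6 diabetic vehicle libraries were above the other 18. The interaction was -5.93 ± 0.99 (standard error, as for all log2 values here; adjusted p = 0.00103), from -5.96 ± 0.57 in diabetic and -0.02 ± 0.77 in non-diabetic mice. Ugt1a1, which conjugates bilirubin, had an interaction of -3.21 ± 0.53 (adjusted p = 8.74e-04). Both genes end at the same base (88218997) and share their last exons, so their reads are not separate measures.

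C3, the central complement component from which the pathway to C5a runs, came next (ENSMUSG00000024164, chromosome 17, 57203970 to 57228136). It ranged from 12.9 to 29.3 CPM in non-diabetic vehicle libraries (median 14.5), 9.38 to 24.8 with PMX-53 (16.6), 29.5 to 537 in diabetic vehicle libraries (272) and 14.2 to 59.7 in diabetic PMX-53 libraries (17.9). The highest diabetic PMX-53 library overlapped the lowest diabetic vehicle library, replicate 4. The interaction was -3.28 ± 0.73 (adjusted p = 0.00779), and -3.52 without that library. The receptor that PMX-53 blocks did not pass the test: C5ar1 held 5 to 38 counts per library and its interaction was 0.36 ± 0.47 (adjusted p = 0.697). C5ar2, the other C5a receptor, and Hc, which encodes C5, held 139 and 26 counts over all libraries and were not tested.

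Several of the other negative genes act in lipid, amino acid and vitamin handling. Cyp4a14, a fatty acid omega-hydroxylase, ranged from 338 to 1099 CPM in diabetic vehicle libraries (median 800) and from 18.2 to 210 in the other 18, and its interaction was -2.71 ± 0.78 (adjusted p = 0.0341), a call lost under 11 of 33 alternative settings. Bbox1, the last enzyme of carnitine synthesis, ranged from 3.38 to 9.81 CPM in diabetic vehicle libraries and from 0.364 to 1.47 in the others (interaction -2.64 ± 0.47, adjusted p = 0.00111). Both genes were thus high in a single group. Slc7a12, an amino acid transporter, had an interaction of -2.70 ± 0.73, and Gc, the vitamin D-binding protein, of -2.68 ± 0.56. Nccrp1, an F-box family gene, gave -2.70 ± 0.49, and Gem, a small GTPase, -2.45 ± 0.35. Wnt7b, a Wnt ligand, gave -3.05 ± 0.77 (adjusted p = 0.0157) at low levels: 2.26 to 6.00 CPM in diabetic vehicle libraries, 0.186 to 1.22 in diabetic PMX-53 libraries, and up to 7.42 in a non-diabetic PMX-53 library. The value was -3.09 without diabetic vehicle replicate 4 and came down to -1.93 at its smallest over all 33 alternative settings.

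**Figure D2:**
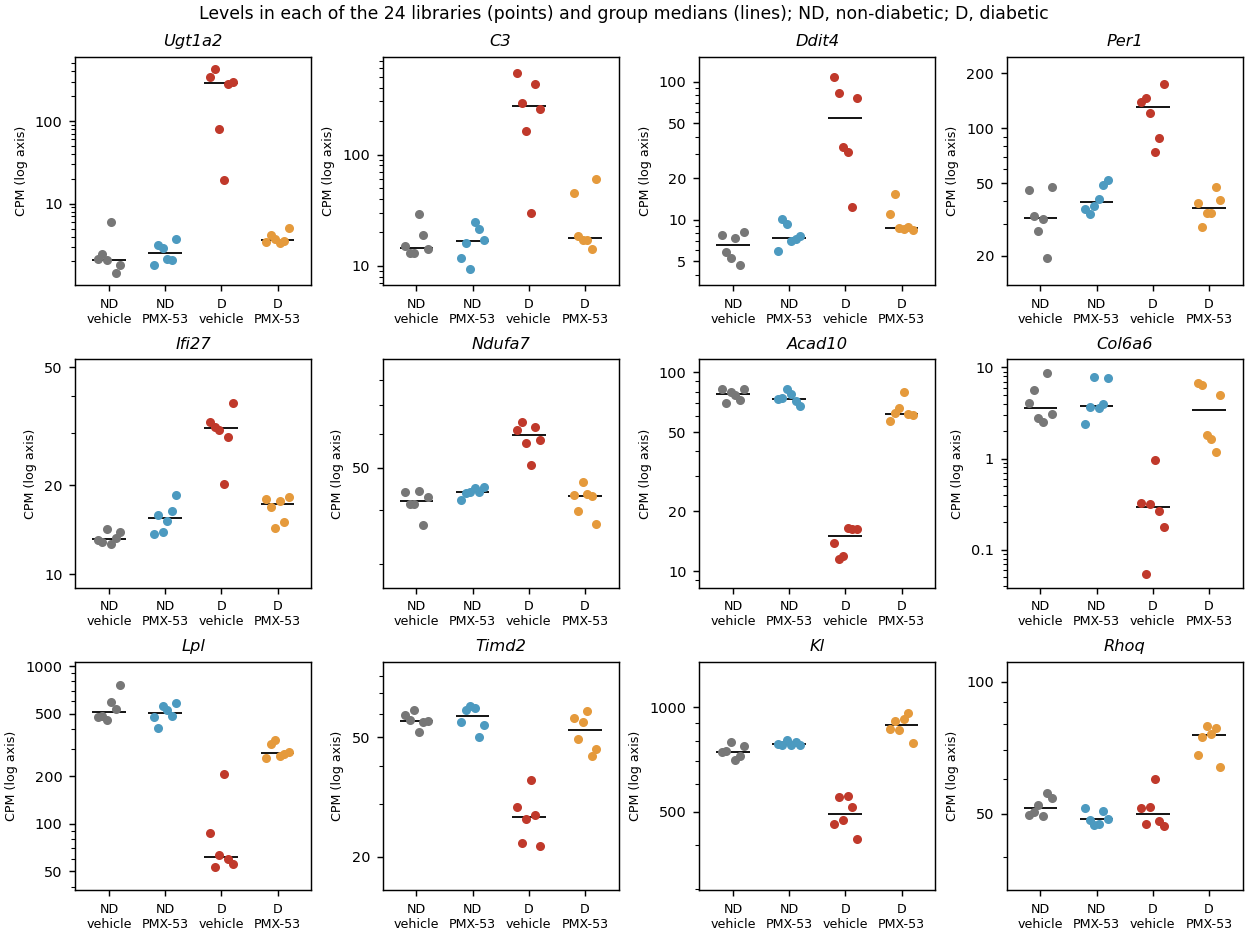
Each panel gives the level of a gene in CPM on a log axis in the 24 libraries (points) of the 4 groups, with the group median as a line; ND is non-diabetic and D diabetic. In the first 11 panels the diabetic vehicle group is the one farthest from the rest, whereas at Rhoq it is the diabetic PMX-53 group (64.0 to 79.2 CPM, above the other 18 libraries).

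On the positive side the largest interaction was at Tmprss9, a transmembrane serine protease gene (ENSMUSG00000059406, chromosome 10, 80871848 to 80899492). It ranged from 3.83 to 7.70 CPM in non-diabetic vehicle libraries (median 4.37), 4.65 to 6.49 with PMX-53 (5.30), 0 to 0.8293 in diabetic vehicle libraries (0.266) and 1.28 to 4.95 in diabetic PMX-53 libraries (3.90). The diabetic vehicle libraries lay below all others, and the interaction was 3.498 ± 0.46 (adjusted p = 5.54e-05). Acad10, a member of the acyl-CoA dehydrogenase family (ENSMUSG00000029456, chromosome 5, 121621026 to 121660514), shared the smallest adjusted p of the whole fit, 4.45e-13, with Nnt. It ranged from 70.4 to 82.9, 67.7 to 82.7, 11.6 to 16.4 and 57.1 to 79.6 CPM in the 4 groups in the same order. The gap between diabetic vehicle and all other libraries was wide, with an interaction of 2.22 ± 0.12, from 2.16 ± 0.09 in diabetic and -0.06 ± 0.08 in non-diabetic mice. At Nnt the interaction was -1.13 ± 0.06, and at Wdfy1 -1.26 ± 0.09 (adjusted p = 9.95e-11).

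Lpl, lipoprotein lipase, ranged from 453 to 761 CPM in non-diabetic vehicle libraries (median 513), 407 to 584 with PMX-53 (507), 53.3 to 206 in diabetic vehicle libraries (61.8) and 262 to 338 in diabetic PMX-53 libraries (282). With PMX-53 the diabetic level lay between the diabetic vehicle level and the non-diabetic levels, with no overlap on either side. Its interaction was 1.86 ± 0.36 (adjusted p = 0.00292). Slc22a7, an organic anion transporter of the late proximal tubule, gave 1.93 ± 0.56 (adjusted p = 0.0351) and 2.82 without diabetic vehicle replicate 4, where it stood at 31.8 CPM against 3.39 to 6.48 in the other 5 libraries of that group. Its call was lost under 14 of the 33 settings. Ces2h, a carboxylesterase, gave 2.54 ± 0.39. Aplnr, the apelin receptor of endothelium, gave 1.91 ± 0.30, Cpxm1, a carboxypeptidase family gene, 2.05 ± 0.34, and Sectm1a, a transmembrane protein gene, 1.90 ± 0.30. C4a, a copy of complement C4, gave 1.94 ± 0.60 (adjusted p = 0.0450), and lost its call under 21 of 33 alternative settings. Its reads may be split with the near-identical C4b. Cntnap5a, of the contactin-associated family, gave 1.80 ± 0.54 (adjusted p = 0.0374) and lost its call under 15 of the 33.

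Some interactions were small in size and tight across libraries. Kl encodes klotho, the kidney's co-receptor for the phosphate hormone FGF23. It ranged from 705 to 794 CPM in non-diabetic vehicle libraries (median 745), 778 to 803 with PMX-53 (782), 417 to 554 in diabetic vehicle libraries (494) and 787 to 966 in diabetic PMX-53 libraries (887). Every diabetic vehicle library was below the other 18, and the interaction was 0.77 ± 0.09 (adjusted p = 1.32e-05). B4galt5, a lactosylceramide synthase, gave 1.17 ± 0.14, Arhgap10, a GTPase-activating protein, 0.49 ± 0.06, and Fam81a 0.99 ± 0.13. Rdh16, a retinol dehydrogenase, gave -0.95 ± 0.13.

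Rhoq, a small GTPase that acts in insulin-stimulated glucose transport, departed in another group (ENSMUSG00000024143, chromosome 17, 86963082 to 87000069). It ranged from 49.5 to 55.7 CPM in non-diabetic vehicle libraries, 47.2 to 51.5 with PMX-53, 47.0 to 59.9 in diabetic vehicle libraries and 64.0 to 79.2 in diabetic PMX-53 libraries. Only the diabetic PMX-53 libraries departed, all 6 of them upward, and the interaction was 0.61 ± 0.08 (adjusted p = 5.52e-05). Ccnd1, cyclin D1, followed the same order: 104 to 189, 110 to 135, 113 to 217 and 220 to 325 CPM. Its interaction was 0.81 ± 0.20 (adjusted p = 0.0138), and it was the only called gene of 24 tested cell cycle and DNA replication genes.

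The nuclear genes of the respiratory chain, whose products pass electrons to oxygen and drive ATP synthesis, were negative wherever they were called. In complex I 20 of 36 tested genes were negative and 0 positive, with a median interaction of -0.29 against 0.006 for all genes. The counts were 7 of 14 in complexes II and III (median -0.28), 10 of 12 in complex IV (-0.41) and 11 of 17 in ATP synthase (-0.34), with 0 positive in each. Ndufa7, a complex I subunit, ranged from 37.0 to 44.2, 42.1 to 45.2, 50.9 to 63.7 and 37.1 to 46.5 CPM in non-diabetic vehicle, non-diabetic PMX-53, diabetic vehicle and diabetic PMX-53 libraries. All 6 diabetic vehicle libraries lay above the other 18, with an interaction of -0.56 ± 0.08 (adjusted p = 1.06e-04). Cox7a2, of complex IV, ranged from 152 to 182 CPM in diabetic vehicle libraries and from 113 to 133 in the others (-0.42 ± 0.07, adjusted p = 5.14e-04). Uqcrb, of complex III, gave -0.48 ± 0.08, and Usmg5 and Atp5g1, of ATP synthase, -0.50 ± 0.09 and -0.47 ± 0.09. All 79 tested genes of these lists had an interaction below 0. Without scaling beyond library totals the medians stayed below 0 (-0.16 to -0.29), but the negative counts became 9, 4, 5 and 5.

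The mitochondrial genome's own protein genes, whose subunits join the same complexes, gave 0 calls among 7 tested and a median of -0.36. The other 6 of the 13, among them mt-Co2, mt-Co3 and mt-Atp6, held 28 counts in all and were not tested. Why so few reads were counted there is not known. At mt-Co1, for example, the ranges were 10529 to 12247, 9163 to 12187, 13414 to 15811 and 10762 to 14934 CPM, and the interaction was -0.21 ± 0.12 (adjusted p = 0.277). In the cytosolic ribosome 46 of 77 ribosomal protein genes were negative and 0 positive, with a median of -0.30 (16 negative without scaling beyond library totals). Rplp1 ranged from 139 to 165, 154 to 182, 198 to 274 and 160 to 192 CPM in the 4 groups, and its interaction was -0.52 ± 0.09 (adjusted p = 0.00103). In the mitochondrial ribosome 7 of 76 genes were called, all negative. That was 9.21%, against 9.42% of all tested genes called and 4.76% negative. The median of -0.07 became 0.04 (and the count 0 negative) without scaling. The count went down to 4 without any of 8 single libraries, 3 of them diabetic PMX-53 and 2 diabetic vehicle. Citrate cycle enzymes gave 1 call of 18 (5.56%, Fh1, -0.23 ± 0.07), and the proteasome core 2 of 17 (11.8%), both negative. Without scaling beyond library totals each list gave 0. The citrate cycle count was also 0 without non-diabetic vehicle replicate 4, diabetic PMX-53 replicate 5 or diabetic vehicle replicate 1, 3 without diabetic PMX-53 replicate 3 and 2 without diabetic vehicle replicate 4. Ppargc1a, the coactivator that drives mitochondrial biogenesis, was negative at -0.51 ± 0.11 (adjusted p = 0.00548), while the kinase gene Pink1 and the mitochondrial polymerase gene Polg were positive at 0.27 ± 0.08 and 0.19 ± 0.06, calls lost under 9 and 25 of the 33 settings. These were the called genes among 17 of biogenesis and dynamics.

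Respiratory chain and ribosomal protein transcripts are short, and positive and negative genes differed in exon length. The median exon length was 4650 bases for positive genes, 3254.5 for negative genes and 4084 for genes not called. With the tested genes in 5 bins by exon length, 7.71% of the shortest bin were negative and 3.27% positive, and of the longest bin 3.55% and 6.00%. Small cytoplasmic and nuclear RNAs, read here as a sign of RNA recovery, had a median interaction of -0.56 over 8 tested. Their summed level had a median of 6980 CPM in non-diabetic vehicle, 7430 in non-diabetic PMX-53, 10700 in diabetic vehicle and 7050 in diabetic PMX-53 libraries. The called members were Rpph1 (-0.49 ± 0.14), Rmrp (-0.61 ± 0.19) and Snora73b (-0.51 ± 0.16). Their calls were lost under 4, 19 and 22 of the 33 alternative settings. The count was 1 without scaling beyond library totals, and 0 or 1 without any of 14 single libraries. The part of transcript length or RNA recovery in the counts of short genes was not tested.

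**Figure D3:**
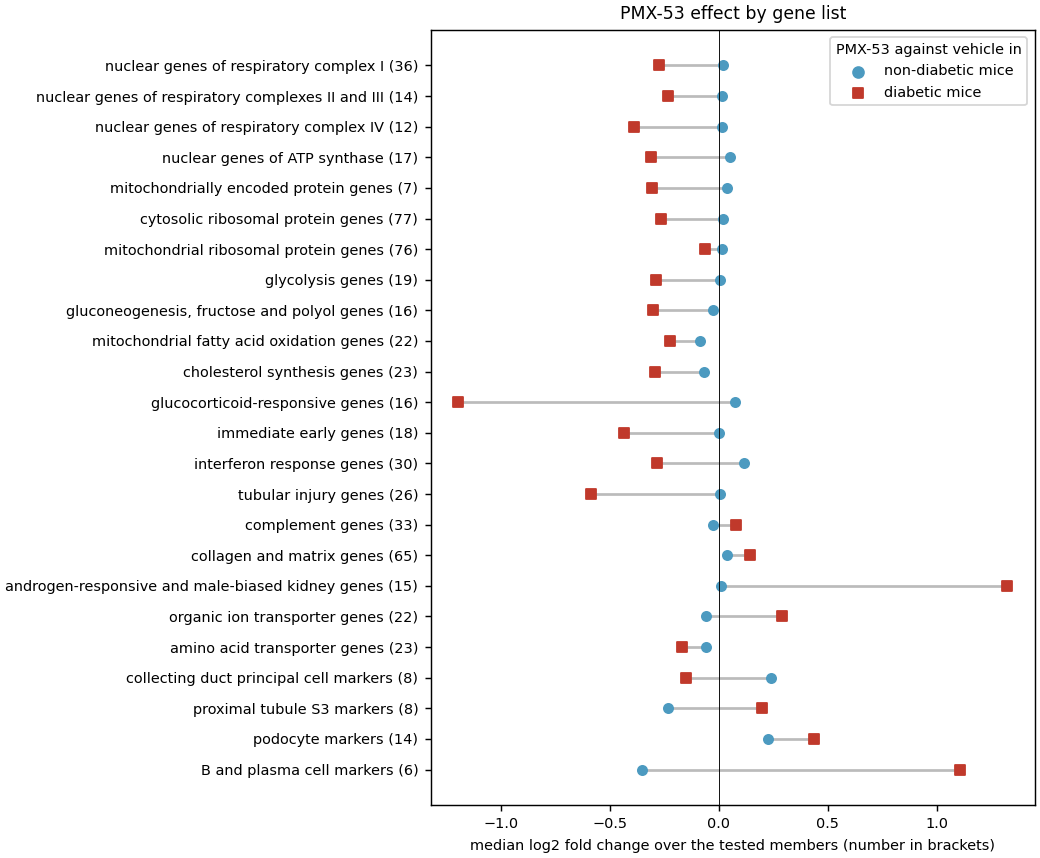
For 24 gene lists, the median log2 fold change of PMX-53 against vehicle over the tested members (number in brackets) in non-diabetic mice (circles) and diabetic mice (squares). Among pathway lists the widest gaps belong to the glucocorticoid-responsive and the male-biased lists, in opposite directions.

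In glycolysis, 5 of 19 tested genes were negative and 0 positive, with a median of -0.36. Pkm, the pyruvate kinase of most cells outside liver and proximal tubule, ranged from 84.2 to 119, 94.9 to 120, 171 to 278 and 126 to 159 CPM, so that the diabetic PMX-53 libraries lay above all non-diabetic ones and below all diabetic vehicle ones. Its interaction was -0.67 ± 0.13 (adjusted p = 0.00189). Eno1, an enolase, gave -0.54 ± 0.11, Pklr, the liver and kidney pyruvate kinase, -0.75 ± 0.17, Pfkl, a phosphofructokinase, -0.36 ± 0.09, and Pgam1, a phosphoglycerate mutase, -0.38 ± 0.12. Without diabetic vehicle replicate 4, 8 were negative and 1 positive. Without scaling beyond library totals 3 were negative and 1 positive. Gluconeogenic and fructose genes gave 3 of 16 negative, 5 without diabetic vehicle replicate 4 and 2 without scaling beyond library totals. Among them Pck1, the rate-controlling enzyme of gluconeogenesis, ranged from 1256 to 2483 CPM in non-diabetic vehicle libraries (median 1409.7), 1002 to 1404 with PMX-53 (1313), 3058 to 3919 in diabetic vehicle libraries (3548) and 619 to 1717 in diabetic PMX-53 libraries (1110.2). Its interaction was -1.20 ± 0.33 (adjusted p = 0.0261). Fbp2, a fructose bisphosphatase, gave -0.76 ± 0.21.

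Fatty acid oxidation did not move as a block: of 22 tested genes Eci1 (-0.55 ± 0.13), Hadha (-0.39 ± 0.10) and Hadhb (-0.28 ± 0.09) were negative and Acad10 positive. Hadhb lost its call under 23 of 33 settings, and the positive count was 3 without diabetic vehicle replicate 4 and 2 without replicate 3. Among 26 targets of the lipid-sensing receptor PPAR-alpha, Acot3, an acyl-CoA thioesterase (-1.64 ± 0.35), and Cyp4a14 were negative. Cyp4a12a, an omega-hydroxylase typical of the male kidney, was positive (1.56 ± 0.44). The share of these targets called was 11.5%, against 9.42% of all tested genes. Cholesterol synthesis gave 5 of 23 negative, with a median of -0.12. They included Ebp, a sterol isomerase (-0.70 ± 0.12), Pmvk (-0.73 ± 0.14), Fdft1, the squalene synthase (-0.42 ± 0.12), and Cyp51 (-0.90 ± 0.28). The count was 3 without non-diabetic vehicle replicate 3 or diabetic PMX-53 replicate 5. In fatty acid synthesis Mlxipl, the carbohydrate-sensing factor ChREBP (0.37 ± 0.10), and Me1, malic enzyme (0.665 ± 0.18), were positive and Elovl6, an elongase (-0.63 ± 0.20), negative, out of 16. Elovl6 lost its call under 17 of 33 settings, among them no scaling beyond library totals.

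Glucocorticoid-responsive genes had the lowest median among the pathway lists, -1.09, and all 16 members were below 0. The 7 called genes were all negative. Per1, a clock gene that glucocorticoids also induce, ranged from 19.3 to 47.8 CPM in non-diabetic vehicle libraries (median 32.4), 33.8 to 52.3 with PMX-53 (39.2), 73.7 to 175 in diabetic vehicle libraries (130) and 28.7 to 47.7 in diabetic PMX-53 libraries (36.6). All diabetic vehicle libraries were above the rest, and the interaction was -2.01 ± 0.30 (adjusted p = 5.14e-04). Ddit4, which restrains the growth kinase mTORC1, ranged from 12.4 to 108 CPM in diabetic vehicle libraries and from 4.69 to 15.3 in the others, a slight overlap (-2.78 ± 0.56, adjusted p = 0.00435). Cebpd, a transcription factor, gave -3.09 ± 0.57 and Nfkbia, the NF-kappa-B inhibitor, -1.18 ± 0.25. The other called members were Sgk1 (-1.71 ± 0.43), Tsc22d3 (-1.12 ± 0.34) and Dusp1 (-1.06 ± 0.33), whose call was lost under 25 of the 33 settings. With single libraries left out 5 to 9 members were negative.

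Immediate early genes, which respond within minutes to stimuli and to tissue handling, gave 4 of 18 negative, with Fosl2 at -1.19 ± 0.24 and Klf6 at -0.78 ± 0.16. Btg2 (-0.60 ± 0.19) and Dusp1 were the other members called, and without 15 of the 24 libraries, taken 1 at a time, the count was 2. Of 18 clock genes only Per1 was called. Sgk1, a kinase that raises sodium transport in the distal nephron, is shown with its promoter because it was the only member of 13 with a RefSeq promoter (GRCm38.p6) that held a glucocorticoid response element, searched as AGAACA and TGTTC with any 3 bases between them, on both strands. It was chosen for that match. The element occurred in 0.0304% of 32851 promoter windows of the same 250 bases before a gene's start. The window shown is 1 of 6 for this gene, chr10:21993640-21993889 on the plus strand, and capitals mark 2 overlapping matches on opposite strands.
Sgk1: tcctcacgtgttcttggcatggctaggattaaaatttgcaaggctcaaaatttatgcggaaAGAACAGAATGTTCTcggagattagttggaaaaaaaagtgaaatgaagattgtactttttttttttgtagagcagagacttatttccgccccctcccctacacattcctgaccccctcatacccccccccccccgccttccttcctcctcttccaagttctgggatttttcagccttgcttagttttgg
Sgk1 ranged from 29.8 to 83.1, 25.6 to 76.4, 83.8 to 219 and 28.9 to 50.2 CPM in the 4 groups. A match is a description of letters, and binding was not measured.

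Interferon response genes, which viruses and free nucleic acid induce, gave 9 of 30 negative and 0 positive, with a median of -0.40. Ifi27, a mitochondrial interferon-induced protein gene, ranged from 12.6 to 14.3, 13.7 to 18.5, 20.2 to 38.0 and 14.3 to 18.3 CPM in the 4 groups. All diabetic vehicle libraries exceeded the others, and the interaction was -1.10 ± 0.15 (adjusted p = 5.52e-05). Ddx58, which encodes the RNA sensor RIG-I, ranged from 33.9 to 42.4 CPM in diabetic vehicle libraries and from 19.9 to 28.8 in the others (-0.65 ± 0.09, adjusted p = 5.52e-05). Irf7, a transcription factor of the response, gave -0.99 ± 0.20 and Ifit3, an RNA-binding effector, -1.31 ± 0.32. With single libraries left out 6 to 9 members were negative.

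Of the 9 negative interferon genes 6 had a RefSeq promoter, and 3 of these held an interferon-stimulated response element, searched as GAAA, any 2 bases and GAAA, on both strands. Their promoters, the 250 bases before the start, are printed for that reason, with matches in capitals: Ifit1 at chr19:34640639-34640888 (plus strand), Ifit3 at chr19:34583279-34583528 (plus) and Bst2 at chr8:71537473-71537722 (minus), where 2 matches overlap.
Ifit1: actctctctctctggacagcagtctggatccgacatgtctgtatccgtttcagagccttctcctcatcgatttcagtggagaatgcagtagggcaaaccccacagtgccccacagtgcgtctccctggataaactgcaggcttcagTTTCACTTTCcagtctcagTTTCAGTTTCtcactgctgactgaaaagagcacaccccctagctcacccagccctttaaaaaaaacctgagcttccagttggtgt
Ifit3: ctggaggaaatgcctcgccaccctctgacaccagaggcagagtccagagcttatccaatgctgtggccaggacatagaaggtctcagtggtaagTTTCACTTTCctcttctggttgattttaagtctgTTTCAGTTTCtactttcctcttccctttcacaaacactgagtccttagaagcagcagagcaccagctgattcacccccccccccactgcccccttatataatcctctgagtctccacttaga
Bst2: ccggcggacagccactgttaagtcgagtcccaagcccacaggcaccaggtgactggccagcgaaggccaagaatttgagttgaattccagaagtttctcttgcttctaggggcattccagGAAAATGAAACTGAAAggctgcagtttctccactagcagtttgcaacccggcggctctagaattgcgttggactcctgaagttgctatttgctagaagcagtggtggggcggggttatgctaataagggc
The element occurred in 2.98% of the 32851 windows, and in 13 of 21 tested members of the list with a promoter, so it was not limited to the members that were called. Ifit1, like Ifit3 an RNA-binding effector, gave an interaction of -1.35 ± 0.36, and Bst2, a tether of budding virus, -0.96 ± 0.24. Both were chosen for their promoters. Of 19 antigen-presentation genes B2m, the light chain of MHC class I, was negative at -0.75 ± 0.14. Ciita, the master factor of MHC class II, was positive at 1.10 ± 0.28. The share called was 10.5%, near the 9.42% of all tested genes.

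**Figure D4:**
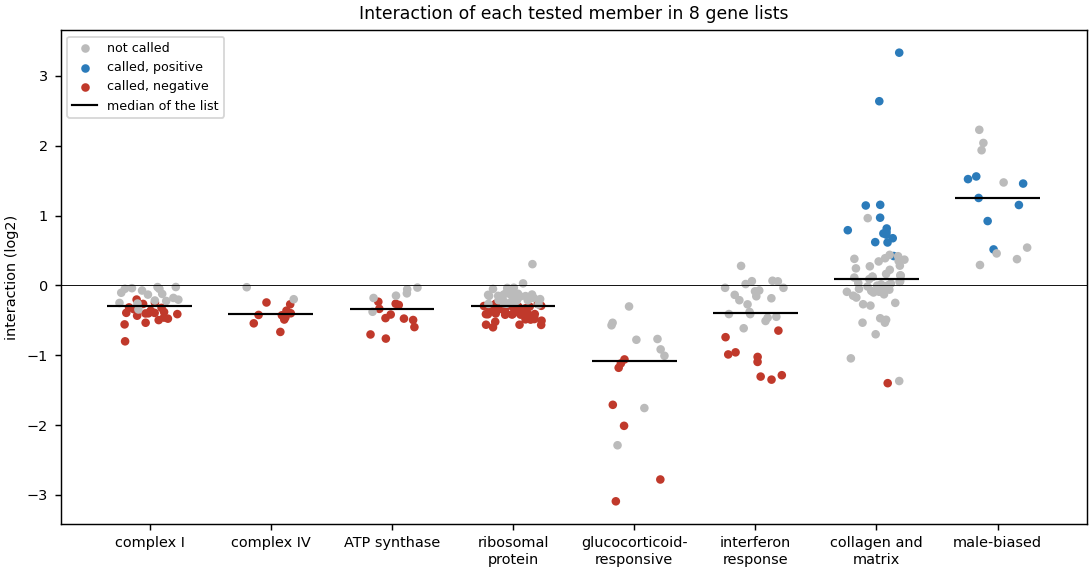
Interaction on the log2 scale of each tested member of 8 lists (points), with the median of each list as a line; blue and red mark positive and negative calls and grey marks members not called. In the complex I, complex IV, ATP synthase, ribosomal protein, glucocorticoid and interferon lists no call is positive, whereas the male-biased list has no negative call and the matrix list 14 positive and 1 negative.

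Tubular injury genes had a median interaction of -0.39, and 3 of 26 were negative and 1 positive. Spp1, the injury-induced matrix protein osteopontin, ranged from 248 to 398 CPM in non-diabetic vehicle libraries (median 339), 260 to 395 with PMX-53 (340), 516 to 2512 in diabetic vehicle libraries (1725) and 526 to 799 in diabetic PMX-53 libraries (561). The diabetic ranges overlapped, and the interaction was -1.45 ± 0.36 (adjusted p = 0.0160). Plaur, the urokinase receptor, gave -0.95 ± 0.22 and Cxcl1, a neutrophil chemokine, -1.62 ± 0.49 (adjusted p = 0.0381). Cxcl1 lost its call under 16 of the 31 alternative settings in which it was tested. Gdf15, a stress hormone, was positive at 0.82 ± 0.26 (adjusted p = 0.0456). Without diabetic vehicle replicate 4, 7 were negative, and 5 without non-diabetic vehicle replicate 5 or diabetic PMX-53 replicate 6. Gdf15 lost its call without 18 of the 24 libraries, left out 1 at a time.

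Of the complement genes other than C3, Itgax, a chain of complement receptor 4 (1.21 ± 0.26), and C4a were positive. So was C2, a protease of the classical pathway (0.56 ± 0.18). Of the 33 complement genes tested, C3 among them, 12.1% were called, against 9.42% of all tested genes. Without diabetic vehicle replicate 4, 5 were positive and 2 negative, and 13 other single libraries reduced the positive count to 1. Matrix genes gave 14 positive and 1 negative of 65, with a median of 0.09. Col6a6, a collagen VI chain, ranged from 2.54 to 8.74, 2.41 to 7.87, 0.0538 to 0.957 and 1.17 to 6.81 CPM, with all diabetic vehicle libraries below the others (3.33 ± 0.78, adjusted p = 0.00993). Col19a1, a basement-membrane collagen, gave 2.64 ± 0.64, and 3.59 without diabetic vehicle replicate 4. Col6a3 gave 0.68 ± 0.14, Lama4, a laminin chain, 0.97 ± 0.22, and Col14a1 0.73 ± 0.16. The exception was Col12a1, a collagen of mechanically loaded tissue, which ranged from 21.4 to 48.6 CPM in diabetic vehicle libraries and from 6.61 to 19.8 in the others (-1.40 ± 0.30, adjusted p = 0.00580).

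Androgen-responsive and male-biased kidney genes had the highest median of the pathway lists, 1.25, with 7 of 15 positive, 0 negative and all 15 above 0. The positive count was 4 without diabetic vehicle replicate 1, 2 without replicate 2 and 13 without replicate 4. Timd2, a ferritin receptor, ranged from 52.0 to 61.5, 50.1 to 63.7, 21.7 to 36.1 and 43.4 to 61.2 CPM, with the diabetic vehicle libraries below all others (0.92 ± 0.14, adjusted p = 3.30e-04). Gusb, beta-glucuronidase, an androgen-induced enzyme of mouse kidney, gave 0.52 ± 0.14. Slc22a30 and Slc22a28, organic anion transporters of the male kidney, gave 1.46 ± 0.40 and 1.25 ± 0.35. Both lie in a cluster of similar genes, where reads can be shared. Of 9 genes listed as female-biased 4 were negative and 4 positive. Without any of 7 single libraries 2 were negative, and without any of 16, 1 or 2 were positive. The sex bias of these members in kidney was not tested, so the split need not be one among female-biased genes. Prlr, the prolactin receptor, ranged from 20.2 to 113 CPM in diabetic vehicle libraries and from 4.56 to 18.1 in the others (-2.34 ± 0.62, adjusted p = 0.0225), with Slc7a12 and Cyp4a14 also negative and Adh1, an alcohol dehydrogenase, positive (0.88 ± 0.24).

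Organic ion transporters gave 7 positive and 1 negative of 22. Slc22a12, the urate exchanger URAT1, ranged from 1048 to 1280, 1015 to 1222, 327 to 683 and 750 to 1076 CPM, and was below the other 18 libraries in all diabetic vehicle libraries (1.12 ± 0.19, adjusted p = 8.47e-04). Slc22a29 was the negative member (-1.92 ± 0.51). Without diabetic vehicle replicate 4, 12 were positive, 3 without diabetic vehicle replicate 2, and 4 without diabetic vehicle replicate 1, diabetic PMX-53 replicate 2 or 3, or non-diabetic PMX-53 replicate 5. Of 20 glucose and sodium transporters 4 were negative and 0 positive, but 1 was negative and 2 positive without scaling beyond library totals, and limma voom called 3 positive. Without non-diabetic vehicle replicate 5, diabetic PMX-53 replicate 6 or diabetic vehicle replicate 4, 1 was positive. Slc5a10, a fructose and mannose transporter, ranged from 217 to 445 CPM in diabetic vehicle libraries and from 74.2 to 167 in the others (-1.01 ± 0.20, adjusted p = 0.00255). The sodium pump subunit gene Atp1b1 gave -0.27 ± 0.07, and Slc5a1, the high-affinity glucose transporter SGLT1, -0.86 ± 0.26. Amino acid transporters gave 6 negative and 2 positive of 23, among them Slc16a10 (-0.46 ± 0.10), Slc6a18 (-0.60 ± 0.15) and Slc6a13 (-0.39 ± 0.10), with Slc36a1 positive (0.60 ± 0.13). Without scaling beyond library totals 2 were negative and 3 positive, and 14 single libraries moved the positive count to 1 or, for diabetic vehicle replicate 4, to 4.

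Detoxification and hormone genes split by member. Beside Ugt1a1 and Ugt1a2, Ugt2b34 was negative (-1.05 ± 0.18), while Ugt8a, which makes galactosylceramide, was positive (0.70 ± 0.16). Among 24 Nrf2 target and glutathione genes 4 were negative, with Gstm1 at -0.52 ± 0.12, Gsta2 at -1.10 ± 0.28 and the epoxide hydrolase gene Ephx1 at -0.76 ± 0.20, and 4 were positive. Of 11 genes on the renin-angiotensin list 3 were negative, among them the peptidase gene Enpep (-0.46 ± 0.10) and Agt, the angiotensin precursor (-0.79 ± 0.22). The receptor genes Mas1 (1.49 ± 0.40) and Agtr1a (0.37 ± 0.10) were positive. Without scaling beyond library totals 0 were negative, and the positive count was 1 without non-diabetic vehicle replicate 4 or diabetic vehicle replicate 2. Insulin and IGF signalling gave 2 positive of 22 and 0 negative, 9.09% against 9.42% of all tested genes called and 4.66% positive. They were Ide, the insulin-degrading enzyme, which is also on the substrain list (1.00 ± 0.14), and Igfbp3, an IGF carrier (0.74 ± 0.20).

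Markers of cell types were counted next. In bulk tissue, fewer cells of a type and less RNA per cell cannot be told apart. Of 10 early proximal tubule markers 0 were called, whereas late proximal tubule (S3) markers had a summed median level of 3600 CPM in non-diabetic vehicle, 3490 in non-diabetic PMX-53, 974 in diabetic vehicle and 1850 in diabetic PMX-53 libraries. Of these 8 markers Slc22a7 was positive and Slc5a1 negative. The positive count was 4 without diabetic vehicle replicate 4 and 0 without any of 12 other single libraries, and Slc5a1 lost its call under 17 of 33 settings. The range of summed levels of the list in diabetic vehicle libraries was 795 to 2410. The S3 list shares Slc7a13 with the male-biased list and Slc22a7 with the female-biased list. Its sum is therefore not separate from those lists. B and plasma cell markers gave 3 positive of 6: Cd79b, of the B cell receptor (1.45 ± 0.38), Jchain, of secreted antibody (1.65 ± 0.43), and Igha, the IgA heavy chain (1.74 ± 0.47). Their summed level ranged from 113 to 259, 90.5 to 153, 20.2 to 67.1 and 41.0 to 128 CPM. Of 14 podocyte markers 2 were positive, among them Sema3g, a semaphorin (0.61 ± 0.18). Of 12 endothelial markers Egfl7 (0.55 ± 0.10) and Kdr, a VEGF receptor (0.63 ± 0.12), were positive. The 2 podocyte calls were lost without 14 of the 24 libraries, singly, in part or in full. Among 14 macrophage markers only the chemokine receptor gene Cx3cr1 was called (0.99 ± 0.28), 7.14% against 9.42% of all tested genes.

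Markers of the deeper kidney and of other tissue followed. Aqp2, the vasopressin-regulated water channel, was negative at -1.38 ± 0.40 (adjusted p = 0.0358) among 8 principal cell markers, whose summed level ranged from 156 to 217, 200 to 334, 277 to 447 and 238 to 331 CPM. Aqp2 lost its call under 14 of 33 alternative settings. Of 8 medulla markers 2 were negative, among them Bst1 (-2.17 ± 0.62). The range of their summed level was 1220 to 1720, 1210 to 1340, 1410 to 2190 and 1160 to 1390 CPM. The part of inner tissue in these libraries was not tested. Of 7 tested liver markers Trf, transferrin, was negative (-0.94 ± 0.30), a call lost under 24 of 33 settings. Of 3 tested adipocyte markers Lpl was positive, while the defining fat markers Adipoq and Plin1 were too low to test. Of 8 thick limb markers Ptger3, a prostaglandin receptor, was negative (-0.65 ± 0.20), a call lost under 19 of 33 settings. Neutrophil, T cell, red cell, intercalated and distal tubule markers gave 0 calls.

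Calls were spread over the genome. Excluding the mitochondrial chromosome, with 0 of 16 genes called, the share called per chromosome ranged from 7.68% on X to 12.1% on chromosome 19. The count of calls depended on single libraries of the diabetic vehicle group: 2242 genes were called without replicate 4 and 1022 without replicate 2.

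**Figure D5:**
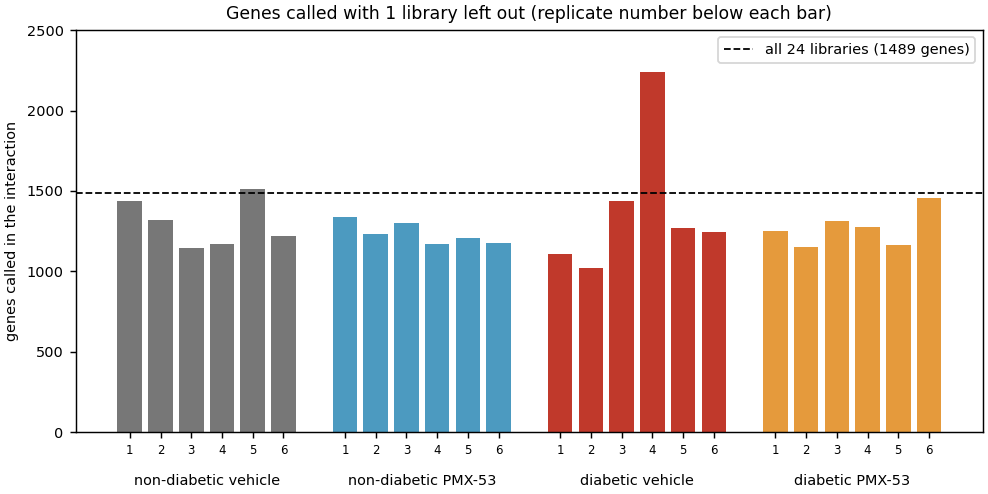
Number of genes called in the interaction with 1 library left out (bars, 1 for each of the 24 libraries, coloured by group) beside the 1489 called with all libraries (dashed line). The bars range from 1022 to 2242, and both ends belong to diabetic vehicle libraries.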

How the data were processed

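The authors' deposited file holds read counts per gene, as whole numbers without normalization, in 24 libraries. Per the labels' protocols, libraries were directional and made from 200 ng RNA after removal of ribosomal RNA. The submitters' processing notes name bcl2fastq 2.20.0.422, STAR and GRCm38. No source used here names the counter, strand setting or annotation, so overlapping or antisense genes and near-identical copies may share reads. The table has 48526 genes and 0 rows that name no gene. In a library 1 CPM is about 11 to 22 counts, which limits precision at low genes. All 60 within-group pairs of libraries differed beyond sampling noise (lowest chi-square 5.21 per degree of freedom).

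Counts were analysed with edgeR 4.0.16 in R 4.3.3: default expression filter over the groups, TMM scaling, 1 coefficient per group over all 24 libraries without covariates, robust quasi-likelihood F tests, and Benjamini-Hochberg adjustment over 15808 genes at 0.05. Standard errors are the log2 value divided by the square root of F. Alternatives were DESeq2 1.42.0, limma 3.58.1 voom, other scalings and filters, thinned counts, a replicate block and each library left out. Figures used Python 3.11.15 and matplotlib 3.10.9. Named genes are the 12 positive and 12 negative called genes of largest interaction whose average log2 CPM reached 1 (gene models, small RNAs, pseudogenes and receptor segments left out), 8 more with the smallest p, for each list up to 4 members of smallest p, and C5ar1, C5ar2, Hc and C3. Other list members named where few were called (Sgk1, Tsc22d3, Pgam1, Cyp51, Agt), and Ifit1 and Bst2, were chosen after their values were seen. The members and the 60 gene lists were chosen with earlier results of these data known, so a list's count is not independent support for its direction. Lists are described by counts and medians, with no test of the list. Over all tested genes 9.42% were called, 4.66% positive and 4.76% negative. Shares near or below 9.42% included those of clock (5.56%), cell cycle (4.17%), histone (7.14%) and pericyte (9.09%) genes. Shares slightly above 9.42% included those of antigen-presentation (10.5%), PPAR-alpha (11.5%), complement (12.1%), principal cell (12.5%) and thick limb (12.5%) genes. The fit was tested on simulated counts of 15672 genes with 200 altered, of which 50.5% of 1.5-fold and 65.7% of 2-fold interactions were recovered with 3 false calls. The altered genes departed in diabetic PMX-53 libraries only, and all other means were the same in every group. Diabetes had no simulated effect and diabetic vehicle libraries did not depart, so these rates need not hold for the data. Promoter windows are from RefSeq (GRCm38.p6) and gene positions from GENCODE M21 on GRCm38. Some genes counted in the lists are not reported here by name.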

Additional observations from a re-analysis of the deposited data

Results flagged for a closer look

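The interaction was called at 1489 genes, 737 positive and 752 negative. Diabetic vehicle libraries stood apart at Nnt and Wdfy1, genes known to differ between C57BL/6 substrains. A further trait of those mice cannot be told apart from the joint effect of diabetes and PMX-53. The lead genes, with their log2 interactions, are given again here because each is a difference between groups under the same contrast. The positive ones were Tmprss9 (3.498), Col6a6 (3.33), Col19a1 (2.64), Ces2h (2.54), Acad10 (2.22), Cpxm1 (2.05), C4a (1.94), Slc22a7 (1.93), Aplnr (1.91), Sectm1a (1.90), Lpl (1.86), Cntnap5a (1.80), B4galt5 (1.17), Fam81a (0.99), Kl (0.77), Rhoq (0.61) and Arhgap10 (0.49). The negative ones were Ugt1a2 (-5.93), C3 (-3.28), Ugt1a1 (-3.21), Cebpd (-3.09), Wnt7b (-3.05), Ddit4 (-2.78), Cyp4a14 (-2.71), Slc7a12 (-2.70), Nccrp1 (-2.70), Gc (-2.68), Bbox1 (-2.64), Gem (-2.45), Wdfy1 (-1.26), Nnt (-1.13) and Rdh16 (-0.95).

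Groups were examined at the lead genes and for total counts, mitochondrial share and ribosomal RNA share, 140 in all, where chance marks about 1 group in 20. A sample lay far from the others of its group in 8 of the 140, all at lead genes. In 5 of the 8 it was diabetic vehicle replicate 4: the highest of its group at Col19a1 (1.08 CPM), Slc22a7 (31.8 CPM), Lpl (205.9 CPM) and Cntnap5a (1.85 CPM), and the lowest at Rdh16 (167 CPM). At each of these genes it lay on the side of the other 3 groups. The other marked values were the lowest diabetic PMX-53 library at Tmprss9 (1.28 CPM), the highest non-diabetic vehicle library at Ugt1a2 (6.05 CPM) and the highest non-diabetic PMX-53 library at Wnt7b (7.42 CPM).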

How the results depend on the processing

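No called gene changed sign in any of the 33 alternatives that still held it. From 65.7% (no filter on low counts) to 99% (DESeq2 size factors) of the 1489 stayed called. Without scaling beyond library totals 277 genes were negative. With no filter 468 were positive, in a test of more genes, and 1 gene was called in non-diabetic mice. Limma voom with sample quality weights called 1177 positive genes among 2222 in all, and DESeq2 5 genes in non-diabetic mice. For PMX-53 in diabetic mice 3466 to 4841 genes were called over all alternatives. Leaving out 1 library at a time gave 1022 to 2242 genes in all, with 455 to 1199 positive: 2242 and 1199 without diabetic vehicle replicate 4, and 1022 and 455 without diabetic vehicle replicate 2. The cause was not tested. No pairing by replicate number was seen in correlations between libraries. For 36 same-number pairs these were -0.124 to 0.131, 3 of them over 0.1, and 0 of 24 libraries correlated best with its own number. The labels do not say whether same-number samples were processed together. A fit with the replicate block called 1344 genes, 678 positive and 666 negative, and kept 84.8% of the calls. Of 7995 values of the 243 named genes, 7314 stayed on their side of the threshold, 555 lost it, 126 passed it and 0 reversed. Depth limits genes near 1 CPM, such as C5ar1. Medians of some lists near 0 changed sign without scaling, among them the mitochondrial ribosome, citrate cycle, fatty acid oxidation and renin-angiotensin lists. Small list counts moved by over 1.5 times without single libraries: 22 libraries did so for positive unfolded protein genes, 19 for positive biogenesis and for liver genes, 18 for principal cell genes, 17 for thick limb genes, 16 for positive female-biased genes, 14 for small RNAs, podocyte, pericyte and positive amino acid transporter genes, 13 for positive glutathione genes, 12 for histones, 9 for negative PPAR-alpha targets, 7 for negative female-biased genes and 4 for medulla genes. Without scaling beyond library totals the p53, principal cell, thick limb, liver and histone lists had 0 negative genes.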

Other observations

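Of 27 p53 target genes 3 were negative and 0 positive, 11.1% against 9.42% of all tested genes called and 4.76% negative. Among the 3 was Sesn1, a stress-induced sestrin (-0.74 ± 0.21). The median interaction was -0.10 (0.01 without scaling beyond library totals). The list's median log2 difference between diabetic and non-diabetic mice was 0.83 on vehicle and 0.64 on PMX-53. Leaving out single libraries reduced the count to 1 in 10 of 24 cases. Of 24 unfolded protein and stress response genes Pdia3, a disulfide isomerase (0.35 ± 0.11), and Edem1, of protein disposal in the endoplasmic reticulum (0.40 ± 0.12), were positive. That was 8.33%, against 9.42% of all tested genes called and 4.66% positive, with fewer calls without any of 22 single libraries. The list's median was 0.002, against -0.40 for diabetes on vehicle and -0.32 on PMX-53. In the cardiolipin list 2 of 13 genes were negative, Hadha and Cds1, with 1 without any of 10 single libraries and 0 without scaling beyond library totals. The contractile and pericyte list gave 1 positive gene of 11, Pdgfrb, a growth factor receptor (0.71 ± 0.21), and the histone list 1 negative gene of 14, Hist1h4d (-0.56 ± 0.17). Red blood cell markers had 0 calls of 9 with a median interaction of 0.71 and a summed median level of 465 CPM in non-diabetic vehicle, 587 in non-diabetic PMX-53, 271 in diabetic vehicle and 479 in diabetic PMX-53 libraries.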
